A study of Mus musculus with 6 samples.

Results

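Kupffer cells are the resident macrophages of the liver sinusoids. They take up bacteria, dying cells, aged red cells and modified proteins from portal blood through a set of surface receptors, and their maintenance depends on signalling through the CSF1 receptor. The 10 genes described here are the commonly used markers of these cells: Clec4f, a C-type lectin, and Cd5l, a secreted scavenger protein; the receptors Vsig4, Marco, Timd4 and Cd163; the growth factor receptor Csf1r; and the surface or lysosomal proteins Adgre1, Cd68 and Folr2. The rule listed them by name and used no measured value, but they were chosen with earlier results of these data known. All 10 had a probe set with a single gene symbol, among 18193 genes named on the array. The rule took every such probe set, 13 in all of 34945, with 3 for Csf1r, 2 for Marco and 1 for each of the others.

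The samples were whole livers of male mice aged 8 weeks, on a mixed background and fasted for 24 h, hybridised to 6 Affymetrix arrays. The labels give the genotype Mig-6 f/f to 3 arrays and Mig-6 d/d to 3. Mig-6, the product of Errfi1, restrains signalling by receptors of the EGF family. The labels do not name the Cre driver or the cells in which the floxed gene was deleted, nor whether each array is a separate animal, so p-values here measure the spread between these samples. Errfi1 was at 5371 to 5686 in f/f and 59.6 to 68.0 in d/d in deposited intensity, in accord with the labels. The arrays are called f/f 1 to f/f 3 and d/d 1 to d/d 3 after their labels, and values listed for a group follow that order. Array f/f 3 differed from the rest: the control probe sets for 18S ribosomal RNA averaged 3807 on it, against 218 to 455 on the other 5 arrays, and it correlated with the others at a mean of 0.952, against 0.974 to 0.978. The markers' differences are given with and without that array, and so are those of genes named from the lists of other genes where leaving it out moved them by over 1.5 times.

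Of the 10 markers, 0 passed an adjusted p of 0.05 in either direction, in limma with Benjamini-Hochberg adjustment over the 13718 genes tested, where 13 genes or 0.0948% passed. Differences are d/d minus f/f in log2(intensity + 16) after quantile normalisation, and understate the change of dim probe sets. The difference was below 0 for 9 of the 10 markers, beside 53.5% of all genes, and the median over the markers was -0.16, beside -0.015 over all genes. Since the markers were chosen with earlier results of these data known, these comparisons are descriptions. One marker, Cd163, had an unadjusted p under 0.05, where 7.84% of all genes did. In whole liver, fewer Kupffer cells and less of a transcript per cell cannot be told apart. All 10 markers lay above the dim limit, an intensity of 48.3. Timd4, Cd68 and the second probe set of Marco lay close to it, as did Cd163 on d/d 1, at 54.9. The brighter probe set of Marco read 68.1 to 94.9 over the arrays, and Folr2 read 90.7 to 119.

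**Figure D1:**
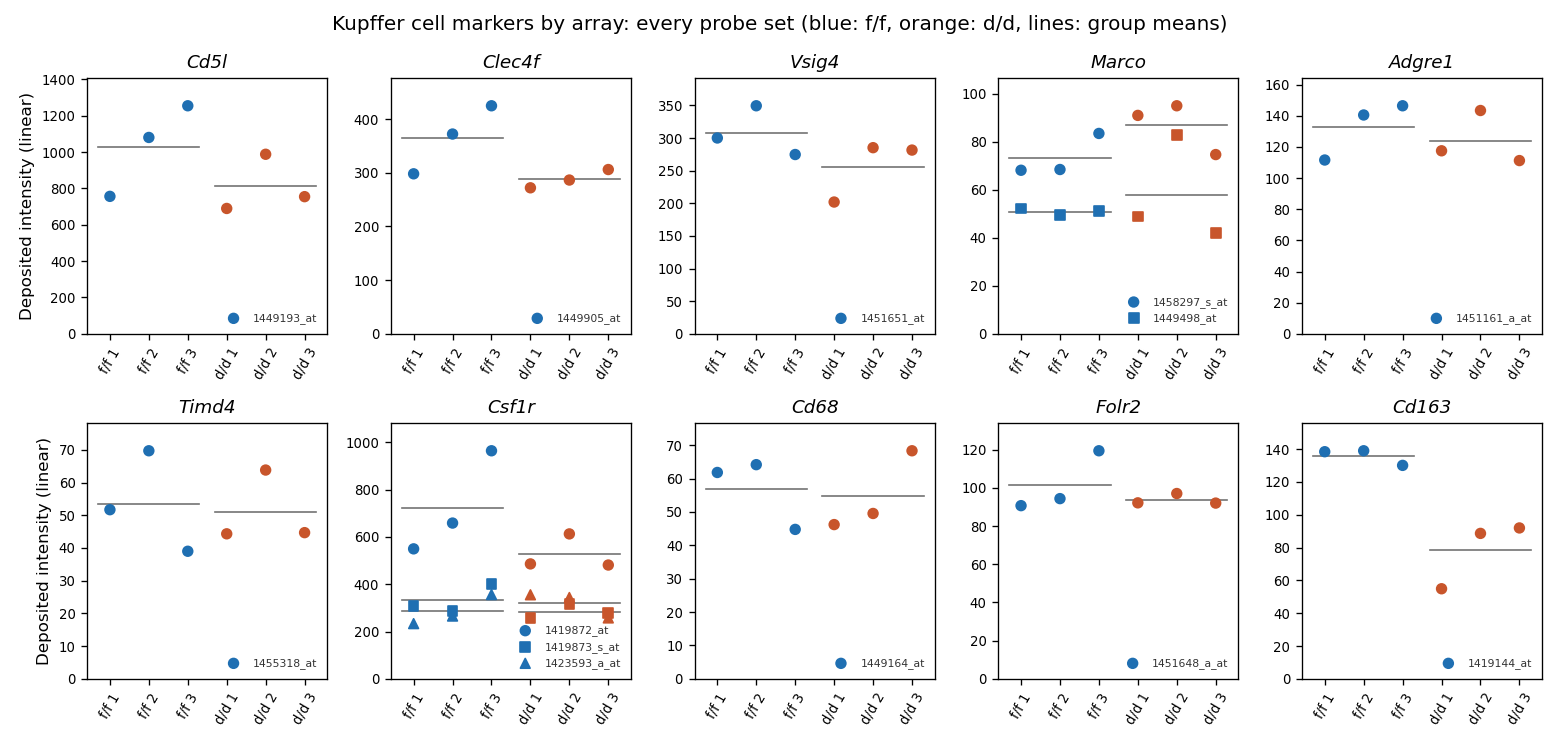
Deposited intensity (linear, y axis from 0) of all 13 probe sets of the 10 markers on each array; blue points are f/f, orange points d/d, marker shapes are probe sets and grey lines group means (n = 3). Cd163 is the marker whose f/f arrays, at 130.03 to 138.93, all lie above its d/d arrays, at 54.9 to 91.9.

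The promoters of 4 members are shown because these members had the largest differences among those with an entry in the RefSeq table of build GRCm38.p6. Each window holds 250 bases before and 50 after the annotated start, printed on the strand of the gene. Of the 10 members, 8 had an entry, with 9 windows in all. Capitals mark GAGGAA or its reverse complement, the core letters bound by PU.1, the myeloid transcription factor encoded by Spi1. The window of Cd5l lies at chr3:87357631-87357930 (plus strand), that of Clec4f at chr6:83656067-83656366 (minus strand), that of Vsig4 at chrX:96293389-96293688 (minus strand) and that of Cd163 at chr6:124304401-124304700 (plus strand).
Cd5l: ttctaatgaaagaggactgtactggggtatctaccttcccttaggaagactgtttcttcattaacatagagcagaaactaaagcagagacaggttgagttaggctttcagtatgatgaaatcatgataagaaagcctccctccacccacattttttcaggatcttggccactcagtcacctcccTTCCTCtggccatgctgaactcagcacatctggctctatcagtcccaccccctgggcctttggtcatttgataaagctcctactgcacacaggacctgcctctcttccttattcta
Clec4f: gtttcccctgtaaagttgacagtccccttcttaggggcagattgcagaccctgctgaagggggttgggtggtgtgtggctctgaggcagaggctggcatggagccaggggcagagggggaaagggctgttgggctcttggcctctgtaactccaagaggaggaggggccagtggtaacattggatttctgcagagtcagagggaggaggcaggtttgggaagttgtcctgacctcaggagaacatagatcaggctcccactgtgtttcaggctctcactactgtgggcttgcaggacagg
Vsig4: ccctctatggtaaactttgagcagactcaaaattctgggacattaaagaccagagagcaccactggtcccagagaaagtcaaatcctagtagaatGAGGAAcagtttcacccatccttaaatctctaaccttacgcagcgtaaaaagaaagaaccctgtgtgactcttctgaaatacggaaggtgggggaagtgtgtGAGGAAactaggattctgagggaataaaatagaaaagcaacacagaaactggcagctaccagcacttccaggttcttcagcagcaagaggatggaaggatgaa
Cd163: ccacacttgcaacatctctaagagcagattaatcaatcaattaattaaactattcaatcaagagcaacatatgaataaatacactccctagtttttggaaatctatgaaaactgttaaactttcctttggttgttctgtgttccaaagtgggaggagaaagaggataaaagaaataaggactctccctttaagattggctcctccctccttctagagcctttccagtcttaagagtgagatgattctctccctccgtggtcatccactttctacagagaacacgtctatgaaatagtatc

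GAGGAA occurred on either strand in 4 of the 9 windows, those of Cd5l, Vsig4, Marco and Cd68, and in 28.3% of all 32851 promoter windows. It stood at position 185 in Cd5l, on the other strand, and at positions 96 and 198 in Vsig4, counted from 1 at the 5′ end of the window. The longer GAGGAAGT, which contains it, was in 0 of the 9 windows and in 3.2% of all. TGCTGA, part of the site of MAF proteins, was in 6 of the 9 windows and 19.5% of all, and TGACTCA, the AP-1 site, in 2 of the 9 and 5.2% of all, both searched on either strand. The windows of Cd5l, Clec4f and Vsig4 hold TGCTGA and that of Cd163 holds none of the 4 motifs. Matches are letters in these windows and were not compared with binding. Spi1 had a log2 difference of -0.17 ± 0.15 (-0.10 without f/f 3), with deposited intensities of 56.0 to 83.8 in f/f and 46.3 to 63.6 in d/d.

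Cd163, the receptor that clears haemoglobin bound to haptoglobin, had the largest difference among the 10. It read 138.35, 138.93 and 130.03 in f/f 1, f/f 2 and f/f 3, and 54.9, 88.6 and 91.9 in d/d 1, d/d 2 and d/d 3. The groups did not overlap, with the d/d arrays lower, as for 6.79% of all genes. The means were 136 ± 4.98 and 78.5 ± 20.5 (SD, n = 3) in deposited intensity. The log2 difference was -0.69 ± 0.18 (SE of limma, 95% interval -1.10 to -0.28). Its unadjusted p was 0.00468, the 221st smallest among the 13718 genes, and it did not pass after adjustment (limma, Benjamini-Hochberg adjusted p = 0.288). With array weights, where f/f 3 was weighted by 0.178, 215 of the 13718 genes passed, against 13 without weights. Among them was Cd163, at -0.82 (limma, Benjamini-Hochberg adjusted p = 0.0419). Over all its settings the adjusted p of Cd163 in limma ran from 0.0419 to 0.782. The difference kept its sign in every fit that left out 1 array, with extremes of -0.82 (d/d 3 left out) and -0.49 (d/d 1 left out), and was -0.77 without f/f 3.

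Cd5l, also known as AIM, is a protein that macrophages secrete into blood and that protects them from apoptosis. It read 756, 1080 and 1255 in f/f and 690, 988 and 755 in d/d. The groups overlapped, since d/d 2 read above f/f 1. The log2 difference was -0.32 ± 0.20 (limma, Benjamini-Hochberg adjusted p = 0.782, 95% interval -0.77 to 0.14). With 1 array left out it ran from -0.51 without f/f 1 to -0.16 without f/f 3, where Cd5l was highest, and did not pass in any of these fits.

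Clec4f, a lectin that in mice is restricted to Kupffer cells, read 298.0, 372 and 425 in f/f and 272, 286 and 306 in d/d. The groups overlapped only through f/f 1, which lay below d/d 3. The log2 difference was -0.31 ± 0.14 (limma, Benjamini-Hochberg adjusted p = 0.638, 95% interval -0.63 to 0.00048). With 1 array left out it ran from -0.44 without f/f 1 to -0.21 without f/f 3.

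Vsig4, a complement receptor that captures opsonised particles, read 300.0, 349 and 275 in f/f and 202, 285 and 282 in d/d. The array d/d 1 was the lowest, and the other 5 arrays overlapped. Its difference was -0.26 ± 0.16 (limma, Benjamini-Hochberg adjusted p = 0.778, 95% interval -0.62 to 0.11). It was -0.11 without d/d 1, -0.16 without f/f 2 and -0.35 without f/f 3.

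Csf1r, the receptor for the macrophage growth factors CSF1 and IL-34, was measured by 3 probe sets that did not share a direction. The one that stood for the gene read 550, 659 and 964 in f/f and 486, 613 and 481 in d/d, with the highest value on f/f 3. Its log2 difference was -0.41 ± 0.20 (limma, Benjamini-Hochberg adjusted p = 0.682, 95% interval -0.87 to 0.040). With 1 array left out it ran from -0.58 without f/f 1 to -0.20 without f/f 3. The next probe set had -0.20 and the third 0.16, and averaged over all of them Csf1r had -0.15. The first and the next correlated over the 6 arrays at r = 0.90, while the third correlated with them at 0.37 and 0.27. These r values are between probe sets of the same gene on the same arrays and are descriptions. In the third, f/f 1 read 233 and d/d 1 read 355, so the groups overlapped in each of the 3.

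Marco, a scavenger receptor for bacteria, was the marker with a difference above 0. Its brighter probe set read 68.1, 68.4 and 83.4 in f/f and 90.9, 94.9 and 74.6 in d/d, with overlap through d/d 3. After quantile normalisation the groups did not overlap and the d/d arrays were higher, as for 7.9% of all genes. The log2 difference was 0.22 ± 0.10 (limma, Benjamini-Hochberg adjusted p = 0.671, 95% interval -0.015 to 0.46), and 0.25 without f/f 3. The other probe set had 0.12. It read 49.4 to 52.1 in f/f, with d/d 2 above them at 82.8 and d/d 1 and d/d 3 below at 48.8 and 42.1.

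The other 4 markers had differences nearer to 0. Adgre1, the F4/80 antigen, read 112, 141 and 146 in f/f and 118, 143 and 111 in d/d, a difference of -0.066 ± 0.13 (95% interval -0.35 to 0.22). Folr2, a folate receptor of tissue macrophages, read 90.7, 94.4 and 119 in f/f and 92.2, 97.0 and 92.0 in d/d, a difference of -0.073 ± 0.10 (95% interval -0.31 to 0.16). Folr2 was highest on f/f 3, and its difference was -0.018 without that array and -0.11 without f/f 1. That of Adgre1 was -0.045 without f/f 3 and ran from -0.15 without d/d 2 to -0.0067 without f/f 2. In deposited intensity all d/d arrays of Folr2 lay within the range of the f/f arrays, and for Adgre1 all but d/d 3, at 111.26 against a lowest f/f value of 111.62. After quantile normalisation d/d 1 lay below the f/f arrays for Folr2, and d/d 3 lay within their range for Adgre1.

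Timd4, the phosphatidylserine receptor that binds dying cells, read 51.7, 69.7 and 39.0 in f/f and 44.3, 63.8 and 44.7 in d/d, a difference of -0.034 ± 0.20 (95% interval -0.49 to 0.43). Cd68, a lysosomal glycoprotein of phagocytes, read 61.8, 64.2 and 44.8 in f/f and 46.2, 49.5 and 68.3 in d/d, a difference of -0.030 ± 0.19 (95% interval -0.47 to 0.41). Both were lowest on f/f 3, and without it they had -0.23 and -0.21. Adjusted p of these 4 ran from 0.897 to 0.977 (limma, Benjamini-Hochberg adjustment), and their intervals leave room for changes in either direction.

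**Figure D2:**
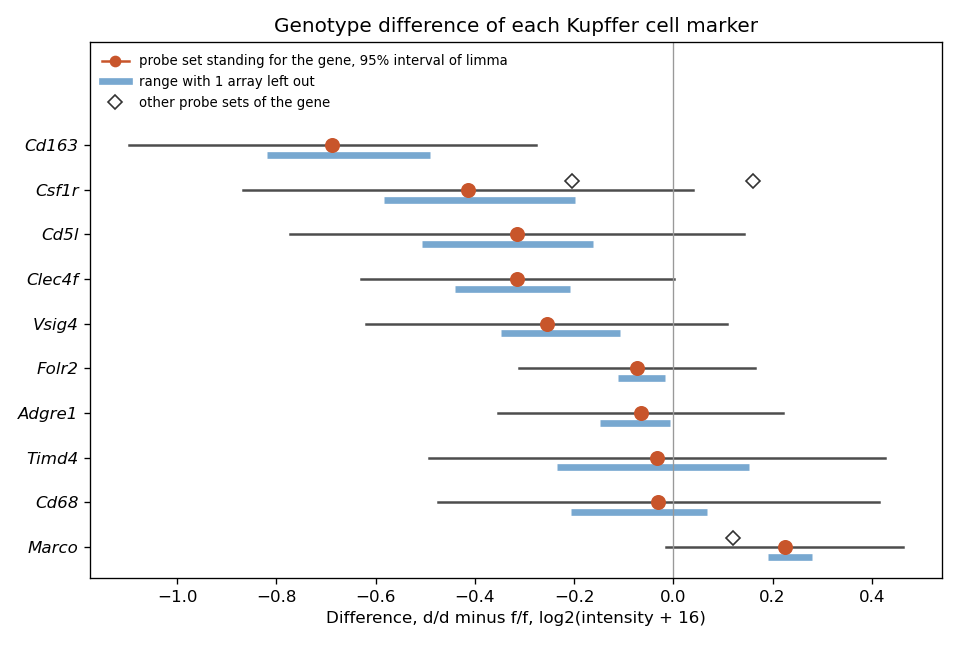
Log2 difference (d/d minus f/f, x axis) of each marker: orange points with black bars are the probe set standing for the gene with its 95% interval from limma, blue bars the range when 1 array is left out, and open diamonds the gene's other probe sets. The interval of Cd163 lies below 0, from -1.10 to -0.28, and the 3 probe sets of Csf1r lie on both sides of 0.

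Across arrays, the 10 markers did not vary as 1 block. Of the 45 pairs of markers, 28 correlated positively over the 6 arrays, with a median Pearson r of 0.38 and a range from -0.91 to 0.93, beside a median of 0.002 over all 94084903 pairs of genes tested. An r above 0.8 was reached by 7 pairs, or 15.6%, beside 7.32% of all gene pairs. With the group means removed the median over the markers was 0.12, and 11.1% of their pairs and 11.1% of all pairs exceeded 0.8. Pairs share arrays and members, so these shares are descriptions. The p-values of single pairs below permute all 6 arrays without regard to genotype, so genotype differences of the paired genes enter them.

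Cd5l, Csf1r, Clec4f and Folr2 were all highest on f/f 3, and the pairs among them had r from 0.80 to 0.93 over the 6 arrays. Without f/f 3 the same pairs ran from 0.35, for Csf1r and Folr2, to 0.92. Cd5l and Csf1r had r = 0.93 (two-sided exact permutation p = 0.00417, 0.0833 after Benjamini-Hochberg adjustment over the 45 pairs) and rho = 0.94 (exact p = 0.0167, adjusted 0.375, n = 6 arrays). The r was 0.90 without the 2 arrays farthest from the median of Cd5l, 0.91 with group means removed and 0.92 without f/f 3. Clec4f and Folr2 had r = 0.91 (two-sided exact permutation p = 0.00417, adjusted 0.0833) and rho = 0.94 (exact p = 0.0167, adjusted 0.375), and r = 0.82 without the 2 arrays farthest from the median of Clec4f and 0.79 without f/f 3. The pair of Clec4f and Csf1r had r = 0.88 and rho = 0.60 (two-sided exact permutation p = 0.0222 and 0.242, adjusted 0.161 and 0.68). Its r was 0.79 with group means removed and -0.10 without the 2 arrays farthest from the median of Clec4f, so its size depended on those arrays. Without f/f 3 it had 0.65, and Cd5l and Clec4f, at 0.85 over all arrays, had 0.67. Cd5l and Folr2 went from 0.80 to 0.56, and to 0.25 without the 2 arrays farthest from the median of Cd5l. Adgre1 also varied with Cd5l, with r = 0.85 and rho = 0.60 (two-sided exact permutation p = 0.0972 and 0.242, adjusted 0.486 and 0.68). That r was 0.99 without the 2 arrays farthest from the median of Cd5l, 0.87 with group means removed and 0.96 without f/f 3. None of the 45 pairs passed an adjusted p of 0.05.

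Vsig4 and Cd163 varied together as well, with r = 0.88 and rho = 0.71 (two-sided exact permutation p = 0.025 and 0.136, adjusted 0.161 and 0.68), r = 0.91 with group means removed and 0.93 without f/f 3. Both were lowest on d/d 1. Of their windows printed above, that of Vsig4 holds GAGGAA and that of Cd163 does not. Without the 2 arrays farthest from the median of Vsig4 the r was 0.40. Cd163 and Marco ran opposite, with r = -0.91 and rho = -0.89 (two-sided exact permutation p = 0.00556 and 0.0333, adjusted 0.0833 and 0.375), r = -0.998 without the 2 arrays farthest from the median of Marco, -0.65 with group means removed and -0.90 without f/f 3.

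Single arrays moved these correlations: the median r was 0.088 without d/d 1 and 0.62 without f/f 3. On f/f 3, the array with the high 18S signal, Cd5l, Csf1r, Clec4f and Folr2 were at their highest while Timd4 and Cd68 were at their lowest. Without f/f 3, 35 of the 45 pairs were positive and 24.4% exceeded 0.8, beside 5.93% of all gene pairs. Timd4 and Cd5l went from r = 0.016 to 0.97, and Timd4 and Csf1r from -0.27 to 0.97. These r values over 5 arrays are descriptions. Whether the 18S signal took part in the values of the markers was not tested.

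**Figure D3:**
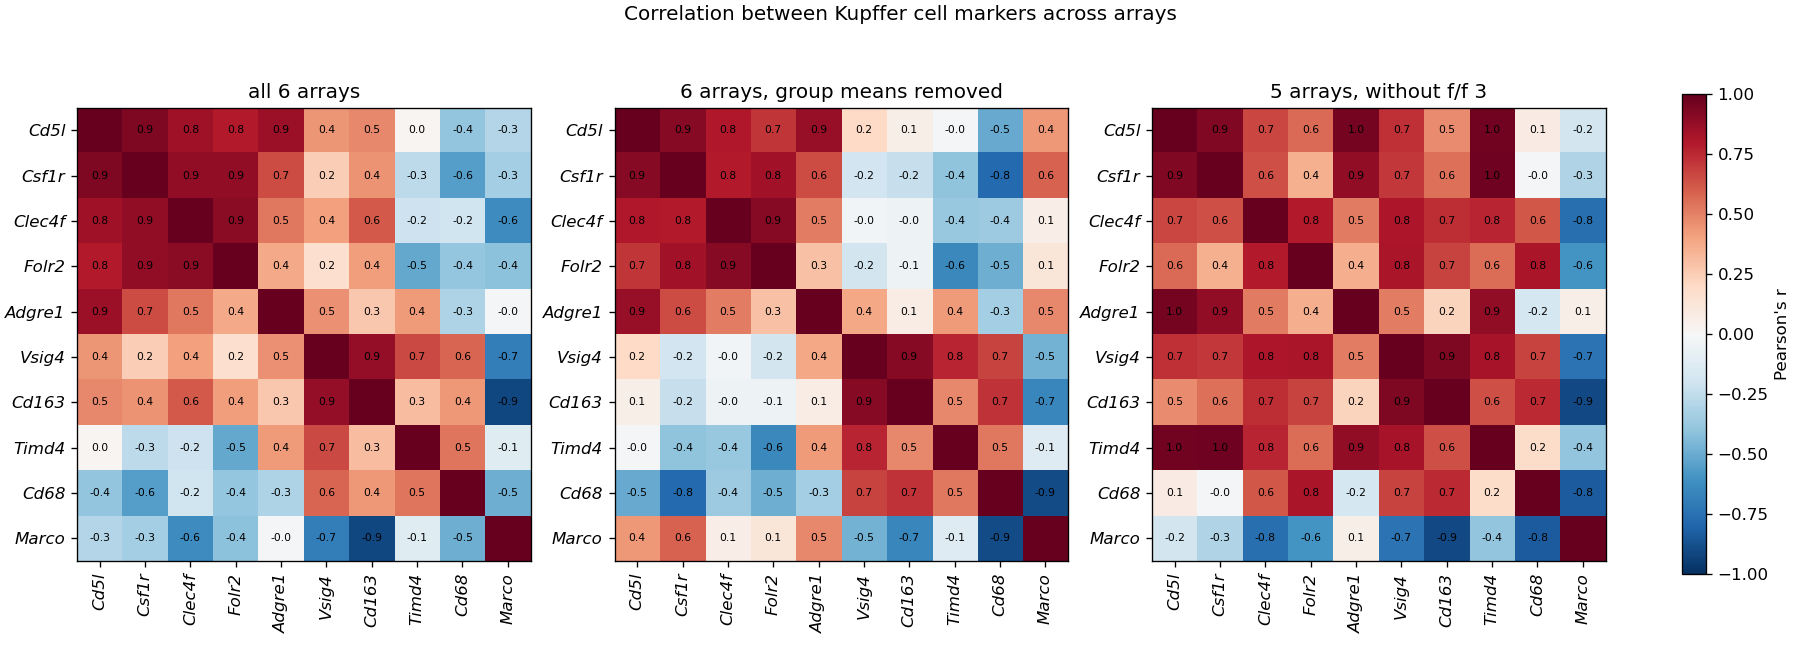
Pearson's r between each pair of the 10 markers (colour scale from -1 to 1, value in each cell) over all 6 arrays, over 6 arrays with group means removed, and over the 5 arrays without f/f 3. Cd5l, Csf1r, Clec4f and Folr2 form a red block at the upper left, paler without f/f 3, where Csf1r and Folr2 have 0.35, Marco is mostly blue in the first and last panels, and Timd4 turns from blue or white against Cd5l, Csf1r and Clec4f to red without f/f 3.

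After quantile normalisation, d/d 1 was the lowest array for 5 of the 10 markers, Cd5l, Clec4f, Vsig4, Folr2 and Cd163, and for 0 the highest. The mean of the centred values of the 10 markers was -0.24 there, -0.065 and 0.0098 on d/d 3 and d/d 2, and 0.00022, 0.19 and 0.11 on f/f 1, f/f 2 and f/f 3. The groups therefore overlapped in this mean: d/d 2 lay above f/f 1. Without d/d 1 the median difference of the markers was -0.083, and without d/d 3 it was -0.23.

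The 5 genes whose profile over the 6 arrays was most like that mean were Socs3, Rpa2, Araf, Edaradd and Saa1, with r from 0.97 to 0.99. They lead 13 genes with r above 0.95 among the 13708 other genes tested, and likeness over 6 arrays is a description of these arrays. Socs3, a feedback inhibitor of cytokine receptors, read 89.7, 178 and 135 in f/f and 46.1, 104 and 66.2 in d/d. Saa1, an acute phase protein that hepatocytes secrete, read 4382, 25385 and 14149 in f/f and 998, 10302 and 2743 in d/d. In Socs3 and Saa1 f/f 2 was highest and d/d 1 lowest, the order that the mean of the markers had at its ends. Saa1 spanned a far wider range than any of the 10 markers. Rpa2 binds single-stranded DNA, Araf is a kinase of the RAF family and Edaradd an adaptor of the ectodysplasin receptor. Rpa2 had a difference of -0.16, Araf -0.075 and Edaradd -0.25.

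**Figure D4:**
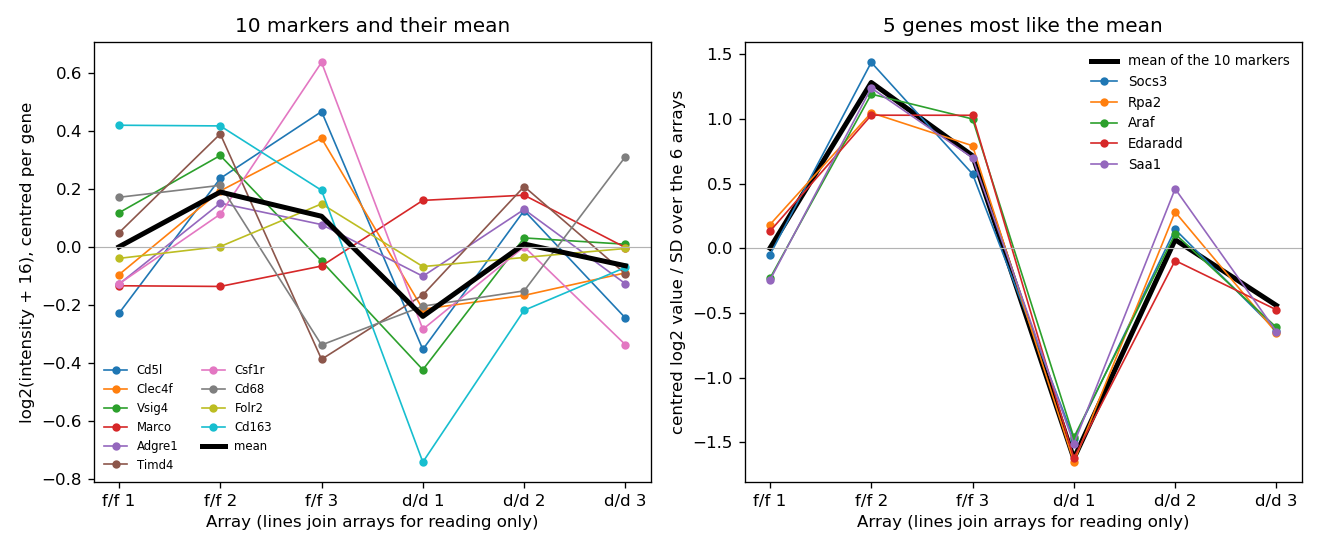
Left, log2(intensity + 16) of the 10 markers, centred per gene, on each array, with their mean as a thick black line; right, the same mean and the 5 genes most like it, each divided by its SD over the 6 arrays. The mean is highest on f/f 2 (0.19) and lowest on d/d 1 (-0.24), and the lines join arrays for reading only.

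Other genes of the macrophage lineage were described by a list of 26, of which 24 lay above the dim limit. Of these 0 passed over all genes in limma, 3 or 12.5% had an unadjusted p under 0.05, all lower in d/d, beside 7.84% of all genes. Of the 24 differences 15 or 62.5% were below 0, beside 53.5% of all genes, with a median of -0.15. The 3 were C1qa and C1qc, chains of the complement component C1q that macrophages make, and Lyz2, lysozyme. C1qa read 350, 403 and 441 in f/f and 259, 311 and 314 in d/d, a log2 difference of -0.41 ± 0.13 (limma, Benjamini-Hochberg adjusted p = 0.39). Lyz2 read 249, 275 and 238 in f/f and 168, 230 and 180 in d/d, a difference of -0.37 ± 0.13 (adjusted p = 0.525, limma, Benjamini-Hochberg adjustment). The groups did not overlap for C1qa, C1qc or Lyz2, with d/d lower, as for 6.79% of all genes. C1qb, whose chain assembles with the products of C1qa and C1qc, had -0.23 with overlapping groups, and Ctss, a lysosomal protease, had -0.19. They had -0.10 and -0.40 without f/f 3. The largest differences in the other direction were those of Mpeg1, a pore-forming protein of phagocytes (0.45), and Mrc1, the mannose receptor, which sinusoidal endothelium also expresses (0.29). Neither passed, and Mrc1 read 154 on f/f 3 against 251 to 283 on the others and had 0.015 without f/f 3.

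Among growth factors and transcription factors of the lineage, 14 of 17 genes lay above the dim limit, 0 passed and 1 or 7.14% had an unadjusted p under 0.05, beside 7.84% of all genes. This was Id3, a transcriptional inhibitor needed for Kupffer cell identity that other liver cells also express. It read 282, 525 and 470.1 in f/f and 165, 195 and 240.1 in d/d. The groups did not overlap, with d/d lower, as for 6.79% of all genes. The log2 difference was -1.001 ± 0.23 (limma, Benjamini-Hochberg adjusted p = 0.228). The ligands of the receptor encoded by Csf1r, Csf1 and Il34, had -0.17 and 0.0014, and Nr1h3, the oxysterol receptor LXR alpha, had -0.032. The values were 0.025, 0.019 and -0.012 without f/f 3. Rbpj, the effector of Notch, had -0.27, and Maf and Smad4, at 0.58 and 0.27, had the largest positive values. Rbpj had -0.087, Maf 0.17 and Smad4 0.16 without f/f 3. On f/f 3 Maf read 111, against 243 to 327 elsewhere, and Rbpj read 207, against 107 to 133. The brightest were Cebpa (0.20) and Rxra (-0.088), which hepatocytes also express, and had 0.10 and -0.023 without f/f 3. After quantile normalisation the groups of Smad4 and Cebpa did not overlap either, with d/d higher, as for 7.9% of all genes. The median of the list was -0.070, and -0.022 without f/f 3.

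Genes of iron and heme handling, the downstream task of Cd163, had 11 of 12 members above the dim limit and 0 past the threshold. Of the 11, 2 or 18.2% had an unadjusted p under 0.05, beside 7.84% of all genes. Blvrb, a biliverdin reductase, read 863, 671 and 869 in f/f and 618, 576 and 602 in d/d, a difference of -0.39 ± 0.13. Slc40a1, the iron exporter ferroportin, read 1629, 1758 and 1584 in f/f and 2033, 2323 and 1910.2 in d/d, a difference of 0.36 ± 0.11. Neither passed (0.438 and 0.395 as adjusted p, limma, Benjamini-Hochberg adjustment). In both the groups did not overlap, with d/d lower for Blvrb, as for 6.79% of all genes, and higher for Slc40a1, as for 7.9%. Hmox1, heme oxygenase, had -0.18, Fth1, a ferritin chain, -0.22 and the endocytic receptor Lrp1 0.17. The groups of Fth1 did not overlap either, with d/d lower. Hpx and Hp, the plasma carriers of heme and haemoglobin that hepatocytes secrete, had -0.0097 and -0.037. Hmox1 had -0.083, Lrp1 0.29 and Hp -0.071 without f/f 3.

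Lists of the other cells that a liver sample holds served as a background, and 0 of their members passed over all genes in limma. Medians of the differences were 0.015 for monocytes and recruited macrophages (7 of 13 genes above the dim limit), -0.059 for neutrophils (10 of 12), -0.14 for dendritic cells (9 of 12), -0.10 for T and NK cells (8 of 15) and -0.15 for B cells (5 of 9). They were 0.030 for endothelial cells (16 of 17), -0.030 for stellate cells and fibroblasts (14 of 15), 0.020 for cholangiocytes (2 of 9), 0 for hepatocytes (15 of 15) and -0.019 for erythroid cells (3 of 8). The median gene of the hepatocyte list was Serpina1c, whose group means were equal after normalisation. Alb also had 0, since it held the same rank and so the same normalised value on every array. Without f/f 3 the median was 0.065 for neutrophils, 0.026 for T and NK cells and 0.083 for B cells. It was -0.069 for endothelial cells, -0.094 for stellate cells and -0.20 for dendritic cells, beside -0.20 for the 10 markers. It was 0.029 for monocytes, 0.059 for cholangiocytes, 0.0073 for hepatocytes and 0.0029 for erythroid cells. Of the 89 genes tested in the lists of other cells, 26 turned their sign. In the 10 lists 6 of the 89 genes, or 6.74%, had an unadjusted p under 0.05, beside 7.84% of all genes, and 11 or 12.4% did without f/f 3, beside 11.2%. Those 11 held 3 of the 9 dendritic genes (33.3%) and 4 of the 14 stellate genes (28.6%). They held 0 of the monocyte, T and NK, cholangiocyte and erythroid lists. Of the 10 markers 2 or 20% did without f/f 3, Cd163 lower in d/d (-0.77) and Marco higher (0.25). The 6 were Ms4a1, the B cell antigen CD20, at 0.93, Mpo, a neutrophil peroxidase, at 0.55, Cyp3a11, a drug-metabolising enzyme, at 0.37, and Dcn and Ecm1, matrix proteins, and Tat, an enzyme of tyrosine breakdown, at -0.28, -0.34 and -0.39. Many of the brightest members moved with f/f 3. In the monocyte list Ccr2 had -0.31 and Trem2 -0.048, and -0.085 and 0.16 without f/f 3. Ccr2 read 272 on f/f 3, against 139 to 166 on the other arrays. In the neutrophil list Lcn2 had -1.29 and Csf3r -0.11, and -1.21 and 0.24 without f/f 3. In the dendritic list Cd74 had -0.24 and H2-Aa -0.25, and -0.52 and -0.54 without it. In the endothelial list Clec4g had 0.28 and Fcgr2b 0.33, and 0.35 and 0.029 without it. Fcgr2b read 209 on f/f 3, against 340 to 453 elsewhere. In the T and NK list Cd8a had -0.073 and Cd4 -0.20, and 0.12 and -0.015 without f/f 3. In the B cell list Ighm had -0.25 and Pax5 0.0014, and -0.021 and 0.083 without it. Epcam, of the cholangiocyte list, where Krt19 was dim, had -0.17 and 0.0026 without it. In the erythroid list Alas2 had -0.019 and Slc4a1 0.15, and -0.0072 and 0.28 without it. Alb and Serpina1c, the brightest of hepatocytes, read 33895 ± 228 and 29622 ± 565 in f/f and 35387 ± 612 and 29726 ± 843 in d/d (SD, n = 3).

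The summed deposited intensity of the 10 markers ran from 2426 to 3482 in f/f and from 2096 to 2710 in d/d. It was highest on f/f 3, against 3037 on f/f 2, and Cd5l and Csf1r, the brightest markers, read 1255 and 964 there. That of the neutrophil list ran from 1109 to 3820 and from 1064 to 1861, and was highest on f/f 2 through Lcn2, an acute phase protein that hepatocytes make too, at 394, 3078 and 1319 in f/f and 177, 915 and 627 in d/d. The hepatocyte list ran from 218426 to 226100 in f/f and from 220200 to 222950 in d/d. The endothelial list ran from 2794 to 3212 in f/f and from 3025 to 3281 in d/d. The part of these cell types in the values of the markers was not tested.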

How the data were processed

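Total RNA of liver, labelled with biotin, was read on Affymetrix arrays (per the labels' protocols). The authors deposited linear intensities, 1 per probe set, for 45101 probe sets. For their summarisation and scaling, the sources used here give nothing. Probe sets were named by the platform annotation; 34945 had 1 symbol, 932 several and 9160 none, besides 64 controls. For each gene the probe set with the highest mean stood, the lowest 40% were left out as dim, and 13718 genes were tested.

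Intensities were used as log2(intensity + 16). Array medians differed by up to 0.185, over the tolerance of 0.1, so arrays were quantile normalised. The genotype comparison used limma 3.58.1 (lmFit, eBayes; R 4.3.3) with no covariate and Benjamini-Hochberg adjustment over all genes tested and a threshold of 0.05. The test was checked on simulated data. Correlations used Python 3.11.15, with exact permutation of 6 arrays without regard to genotype. Text names the 10 members, Errfi1, up to 4 passing and the 2 brightest genes of each list, the 2 largest differences in each direction of the 3 macrophage, factor and iron lists, and the 5 genes most like the members' mean; Spi1, Csf1, Il34, Nr1h3, Hmox1, C1qc, Mpo, Ms4a1, Cyp3a11 and Tat were named after their values were seen. The members and lists were chosen with earlier results of these data known. Genes on a list without a named probe set were not used here.

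Same-numbered arrays of the 2 genotypes did not deviate together (r = -0.0033, -0.14 and -0.47 over genes), so the numbers were not taken as pairs. Alternatives covered scaling, dim filter, probe set choice, variance model, array weights, block, pseudocount, threshold and each array left out. The number of arrays limits the precision.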

Additional observations from a re-analysis of the deposited data

How the results depend on the processing

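The 10 markers had 0 calls in 18 of 19 alternatives and 1, Cd163 at -0.82, with array weights, where 215 of 13718 genes were called. Of 190 values of single markers under alternatives, 182 kept their sign and their side of the threshold and 7 turned their sign, all with 1 array left out: Cd68 had 0.048, 0.068, 0.064 and 0.038 in the fits lacking f/f 1, f/f 2, d/d 1 and d/d 2, and at the lowest -0.21 in that lacking f/f 3. Timd4 had 0.15, 0.041 and 0.0053 in those lacking f/f 2, d/d 1 and d/d 3, and at the lowest -0.23 in that lacking f/f 3. The causes were not tested. Timd4 fell under the dim limit without f/f 2. The median difference of the markers stayed between -0.23 and -0.083 in all alternatives run, with both ends among the fits that left out 1 array.

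Over all genes, 13 calls became 21 with an intensity trend, 215 with array weights, 6 with the replicate number as a block, 21 at a threshold of 0.1 and 4 to 91 with 1 array left out, the highest without f/f 3. With the replicate block 0 markers passed, and the adjusted p of Cd163 was 0.655. The median r between markers, 0.38, was 0.12 with group means removed, a form set in the plan. That plan gave the correlations no p-values, and those of single pairs were added to it. With 1 array left out the median r lay between 0.088 (d/d 1 left out) and 0.62 (f/f 3 left out), so each of those arrays moved it. Without f/f 3, an alternative chosen after seeing the data for listed genes, 5 of the 45 named from lists turned their sign: Csf1 (0.025), Trem2 (0.16), Csf3r (0.24), Cd8a (0.12) and Epcam (0.0026). List medians moved to -0.022 (growth and transcription factors), 0.026 (T and NK cells) and 0.083 (B cells). Signal near the dim limit restricts what Timd4, Cd68 and Marco can show.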
